A study of Mus musculus with 7 samples.

Results

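Ephrins, semaphorins and other axon guidance genes were measured in ERα+ neurons of the mouse medial preoptic area (MPA) that did or did not respond to warming. The members were chosen by symbol: every gene whose name starts with Efna, Efnb, Epha, Ephb, Sema, Plxn, Slit or Robo (the Slitrk genes left out), together with Nrp1, Nrp2, Ntn1, Ntn4, Ntng1, Ntng2, Dcc, Unc5a to Unc5d, Rtn4, Rtn4r, Rtn4rl1 and Rtn4rl2. They numbered 74 of the 24062 gene symbols counted. The choice of these families was made with the group difference in view, since Rtn4rl2 and Efna3 were already known to be among the genes much lower in the responsive neurons. For this reason the fold changes of the members are given as a description, without p-values, and a member is written as called higher or called lower where it passed the fit across all genes at an adjusted p of 0.05.

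The neurons came from Esr1-ZsGreen mice, in which the green fluorescent protein ZsGreen reports Esr1, the gene of estrogen receptor α (ERα). According to the study's methods these were adult females, chosen because the reporter is stronger in the female MPA. ZsGreen+ neurons in brain slices were recorded by patch clamp while the slice was warmed by 5 °C, and the contents of 2 neurons with the same kind of response were drawn into the pipette and pooled as 1 sample. Pools of neurons labelled as temperature responsive made up 4 samples (TR) and pools labelled as not responsive made up 3 samples (NR). All 7 samples shared the strain, the reporter, the brain slice preparation and the warming, and none came from untreated tissue. The labels did not state whether the samples of a group came from separate mice, so that the tests measure the spread between these pools, part of which may be technical.

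Axon guidance molecules are cell surface or secreted ligands and the receptors that read them. Ephrins bind Eph receptor tyrosine kinases on a touching cell, and semaphorins act through plexins and neuropilins. Slits act through Robo receptors, netrins through Dcc and Unc5 receptors, and Nogo (Rtn4) through the Nogo receptor (Rtn4r). They steer growing axons in the embryo, and in the adult brain many of them are kept at synapses, on glia and in blood vessels.

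Total counts lay between 1914497 and 2814360 in the TR samples and between 3309361 and 5125280 in the NR samples, whereas the number of genes detected was larger in every TR sample (19852 to 21177) than in any NR sample (17818 to 19820). Depth therefore differed with the group, and its part in the results below was not tested beyond the alternatives given. The lists of neuronal and glial markers were detected in full in every sample. Neuronal markers summed to between 2779 and 3321 CPM (counts of a gene scaled to a common total per sample), and oligodendrocyte markers to between 2534 and 3661 CPM, so that transcripts of oligodendrocyte genes were about as abundant as those of neuronal marker genes in pools labelled as neurons. Esr1 itself had 10 to 27 counts per sample. Ddx3y, a gene of the Y chromosome, had 684 to 1150 counts in every sample and Xist 2 to 14, which goes against the female sex given in the methods for all 7 samples of both groups.

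Of the 74 members, 71 had at least 10 counts in at least 3 samples and were tested, in a fit over 14407 genes in all. Ntn4, Ntng2 and Sema3g did not reach this minimum. Of the 71 members tested, 21 were called, 6 higher and 15 lower in TR neurons, whereas 30.0% of all genes tested were called, 15.1% higher and 14.9% lower. The median log2 fold change (TR over NR) was −0.10 over the 71 members and 0.007 over all genes tested. This difference depended on the processing. The medians were −0.155 (members) and −0.044 (all genes) with library size alone, and −0.066 and −0.059 with a GC content offset. With samples thinned to equal depth they were 0.002 and −0.003. Without NR sample 3, 10 members were called (4 higher and 6 lower), against 18.5% of all genes (9.47% higher and 9.01% lower). Without TR sample 2, 14 were called (3 higher and 11 lower), against 21.0% (10.9% and 10.1%), and without NR sample 2, 14 were called (4 higher and 10 lower), against 21.2% (10.7% and 10.5%), so that the calls over all genes dropped as well. When edgeR was given a covariate for how many genes each sample had detected, 0 members were called (16 at an unadjusted p under 0.05), against 0.00694% of all genes. The split into higher and lower moved with the scaling, and that over all genes moved with it. In place of 6 and 15 members it was 10 and 13 with upper quartile normalization (18.3% and 11.2% of all genes, 29.4% together), 4 and 18 with library size alone (13.1% and 18.0%, together 31.1%), 4 and 13 with a GC content offset (8.85% and 15.0%) and 3 and 20 with a transcript length offset (12.1% and 17.7%, together 29.8%).

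**Figure D1:**
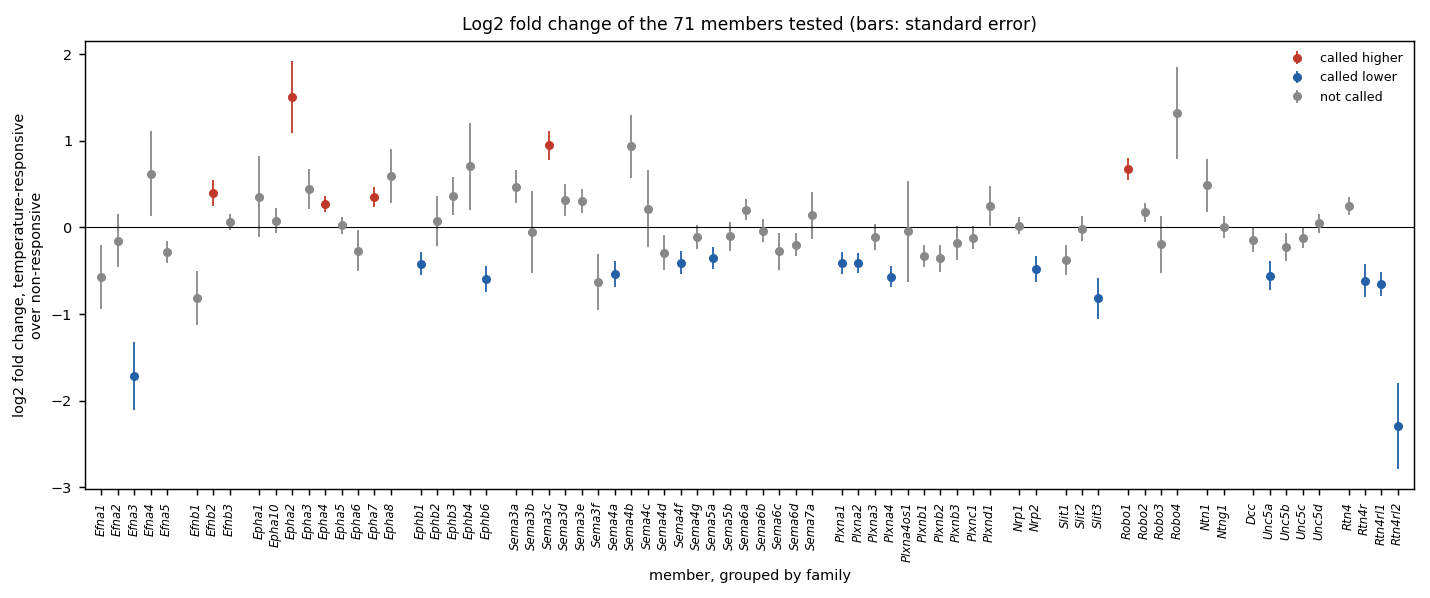
Log2 fold change (TR over NR, vertical axis) of each of the 71 members tested, grouped by family along the horizontal axis. Points are fitted values from 4 TR and 3 NR samples with bars of 1 standard error, coloured by call; Rtn4rl2 and Efna3 lie lowest and Epha2 highest.

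On plain CPM the TR and NR samples did not overlap for 20 of the 71 members tested, 4 higher and 16 lower in TR neurons. Over all genes tested, 14.5% were higher and 21.4% lower in this way. Efnb2, Epha7 and Unc5a were called although their groups overlapped, and Efna5 and Plxnb1 were not called although theirs did not. In samples of this kind, fewer cells of a type in the pool and less RNA per cell cannot be told apart.

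The members together took between 0.367% and 0.428% of the counts of each sample. Levels between genes are compared here as CPM per kilobase of the longest transcript, averaged over the 7 samples. Rtn4 stood highest at 109, followed by Efnb3 at 53.6, the semaphorin co-receptor Nrp1 at 48.7 and Epha4 at 44.0, and next came Epha7 at 20.4 and Rtn4rl1 at 19.1. The lowest were Ephb4 at 0.958, Ntng2 at 0.658, Ntn4 at 0.546 and Sema3g at 0.425.

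Summed over each family, 4 families lay lower in every TR sample than in any NR sample and 2 lay higher. Of all single genes tested, 21.4% lay lower and 14.5% higher in this way, and no such share was taken for sums. Here and below, values are listed from sample 1 upward within each group. A-class ephrins summed to 73.7, 73.1, 74.6 and 75.0 CPM in the TR samples and 91.6, 103 and 98.7 CPM in the NR samples. EphB receptors summed to 122, 127, 125 and 137 CPM in the TR samples and 156, 164 and 173 CPM in the NR samples. Plexins summed to 446, 493, 549.7 and 582 CPM in the TR samples and 600.1, 642 and 766 CPM in the NR samples. The gap between the groups was smaller than the SD within either group for the plexins. It was larger than both for the EphB receptors and the A-class ephrins. The 4 TR values of the A-class ephrins were nearly equal. The sum of Dcc and the Unc5 receptors was also lower, with 276, 304, 324 and 313 CPM in the TR samples and 334, 336 and 388 CPM in the NR samples. EphA receptors went the other way, with sums of 695, 697, 657 and 657 CPM in the TR samples and 572, 587 and 641 CPM in the NR samples. Robo receptors summed to 174, 225, 188 and 199 CPM in the TR samples and 169, 157 and 148 CPM in the NR samples. As for the plexins, the gap was smaller than the SD within either group for the Dcc and Unc5, EphA and Robo receptors. Which families separated depended on the scale, since per kilobase of transcript the plexins overlapped and the Slits did not. On CPM the remaining families, namely B-class ephrins, semaphorins, neuropilins, Slits, netrins and the Nogo family, overlapped between the groups.

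**Figure D2:**
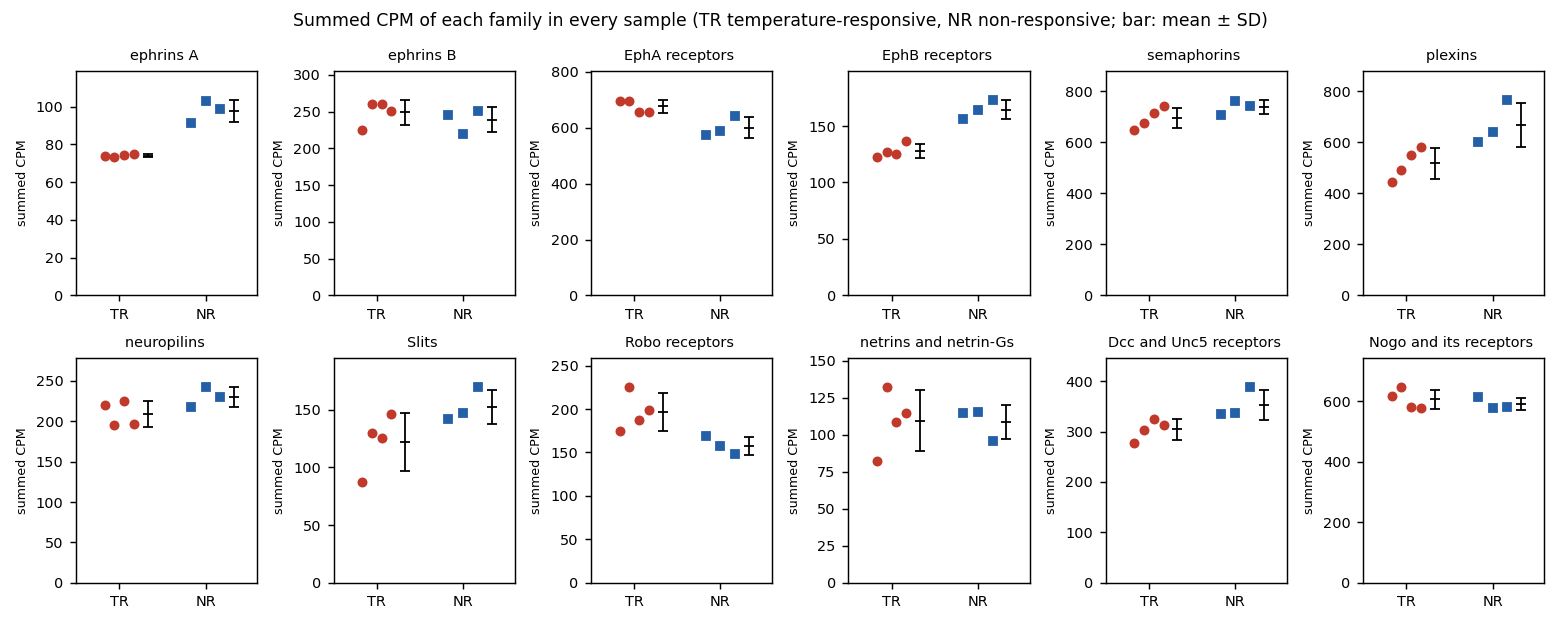
Summed CPM (vertical axes, from 0) of the members of each of 12 families in each of the 4 TR samples (red) and 3 NR samples (blue), with the mean and SD of each group beside the points. A-class ephrins, EphB receptors, plexins and Dcc with the Unc5 receptors lie lower in TR samples, and EphA and Robo receptors lie higher.

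Of the 5 A-class ephrins, the ligands that sit on the membrane by a lipid anchor and bind EphA receptors, Efna3 was the only one called. Efna3 stood at 1.32, 2.61, 2.53 and 3.91 CPM in the TR samples and 8.46, 8.0 and 10.7 CPM in the NR samples. Every TR value was thus under every NR value, by a log2 fold change of −1.71 ± 0.39 (standard error, SE). The counts behind these values were 3, 5, 7 and 11 in the TR samples and 28, 41 and 52 in the NR samples. Over the pooled counts the NR level was 3.41 times the TR level, with an exact 95% counting interval of 2.22 to 5.43 that covers counting error only. Efna3 was called under 18 of the 19 alternatives in which it passed the count minimum, the exception being the covariate of genes detected.

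Efna3 lies between Efna4 and Efna1 on chromosome 3 of mm10, and the 3 genes run in the same direction on the minus strand. Efna1 lies at chr3:89271733-89281142, Efna3 at chr3:89313899-89322965 and Efna4 at chr3:89333390-89338028, with 32.8 kb between the first pair and 10.4 kb between the second. No test of the difference between Efna3 and its neighbours was made. Counts per sample were low for both neighbours, from 8 to 47 for Efna1 and from 7 to 16 for Efna4. Efna1 was measured at 7.07, 4.18, 6.16 and 2.84 CPM in the TR samples and 6.35, 9.17 and 7.81 CPM in the NR samples, a log2 fold change of −0.57 ± 0.37 (SE). Efna4 was measured at 3.97, 3.66, 4.35 and 3.20 CPM in the TR samples and 2.42, 1.95 and 3.29 CPM in the NR samples, a log2 fold change of 0.62 ± 0.49 (SE). The groups overlapped for both, and the fitted values of Efna3 and Efna4 had opposite signs. Efna3 shares 14.1% of its exonic bases with Gm15998 and Efna4 10.5% with 4731419I09Rik, each on the opposite strand, and as strandedness was not given in the sources used here, reads in these stretches could belong to either gene.

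Efna5, the A-class ephrin with the highest level, was at 54.3, 48.6, 53.6 and 56.1 CPM in the TR samples and 67.7, 70.6 and 64.7 CPM in the NR samples. These groups did not overlap, with a log2 fold change of −0.29 ± 0.12 (SE) that was not called here but was called under 5 of the 20 alternatives, among them the GC content offset (−0.46). Efna2 was at 7.07, 14.1, 7.97 and 8.88 CPM in the TR samples and 6.65, 13.3 and 12.1 CPM in the NR samples and its groups overlapped, with a log2 fold change of −0.15 ± 0.30 (SE). Efna5 made up most of the summed level of the family.

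Of the 9 EphA receptors, which bind mainly A-class ephrins, 3 were called, all higher in TR neurons. Epha2 showed the largest log2 fold change of the members called higher, 1.51 ± 0.41 (SE). It stood at 11.04, 7.31, 13.0 and 4.62 CPM in the TR samples and 4.23, 2.54 and 3.29 CPM in the NR samples, from 13 to 36 counts per sample. The lowest TR sample lay just above the highest NR sample, and TR sample 3 was the highest. Thinned to equal depth the value was 0.97 and was not called. Epha4, a receptor for both ephrin classes and the EphA receptor with the highest level, was at 299, 301, 286 and 297 CPM in the TR samples and 237, 260.1 and 270.3 CPM in the NR samples. The groups lay apart with little spread in either, at a log2 fold change of 0.27 ± 0.09 (SE). The call of this small difference was lost without TR sample 1 or 2 or any of the NR samples, with values from 0.23 to 0.31. Epha7 was called higher as well (0.35 ± 0.12, SE), although its TR range of 124 to 173 CPM met the NR range of 116 to 126 CPM, and its call was lost without TR sample 1 or 2 or NR sample 2 or 3 (0.25 to 0.38). Epha1, Epha3, Epha5, Epha6, Epha8 and Epha10 were not called, with log2 fold changes between −0.27 and 0.60. With the GC content offset Epha2 alone of these receptors was called higher, Epha4 had 0.12 and Epha7 0.09 and neither was called, and Epha5 was called lower (−0.28).

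Among the B-class ephrins, the transmembrane ligands, Efnb2 was called higher (0.40 ± 0.15, SE). Its lowest TR value, 49.9 CPM, lay under all NR values, which ran from 50.8 to 65.9 CPM, and the call was kept in 6 of the 20 alternatives. It was lost with DESeq2 (0.41) and library size alone (0.35), among others, and the sign turned with the covariate of genes detected (−0.07). Efnb3, the highest of the class, had nearly the same level in every TR sample. It stood at 170.5, 170.3, 173 and 171 CPM in the TR samples and 171, 156 and 184 CPM in the NR samples, and it was not called. Efnb1 was not called either, with values from 3.97 to 10.1 CPM in TR and from 8.76 to 16.0 CPM in NR samples.

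Of the 5 EphB receptors, Ephb1 and Ephb6 were called lower. Ephb1, the highest of them, was at 66.2, 58.5, 62.3 and 55.8 CPM in the TR samples and 69.2, 87.6 and 95.6 CPM in the NR samples, a log2 fold change of −0.42 ± 0.13 (SE). Ephb6, a receptor whose kinase domain lacks activity, ranged from 26.9 to 39.4 CPM in TR and from 48.8 to 51.7 CPM in NR samples, a log2 fold change of −0.59 ± 0.15 (SE). Neither gene had a TR value that reached the lowest NR value. The call of Ephb1 was lost without TR sample 4 or NR sample 2 or 3 (−0.39 to −0.32). Ephb2, Ephb3 and Ephb4 were not called.

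Semaphorins, secreted or membrane-bound ligands that act mostly as repellents, had 20 members, of which 19 were tested, 1 was called higher and 3 were called lower. Sema3c, a secreted semaphorin, stood at 52.6, 47.5, 59.8 and 45.1 CPM in the TR samples and 32.0, 31.6 and 20.1 CPM in the NR samples, a log2 fold change of 0.95 ± 0.17 (SE). All TR values lay above all NR values, and Sema3c was called under every alternative but the covariate of genes detected. The 3 called lower were membrane-bound. Sema4a (−0.54 ± 0.15, SE) ranged from 26.5 to 36.9 CPM in TR and from 44.9 to 58.4 CPM in NR samples. Sema4f (−0.41 ± 0.14, SE) ranged from 42.8 to 60.0 CPM in TR and from 65.4 to 74.3 CPM in NR samples. In both genes the groups were apart. Sema5a, the semaphorin with the highest mean CPM, was at 59.6, 87.8, 88.0 and 88.5 CPM in the TR samples and 89.7, 115 and 117 CPM in the NR samples. The groups did not overlap (−0.35 ± 0.13, SE), but 3 of the TR values lay just under the lowest NR value and TR sample 1 lay well below them. Calls were lost for Sema4a without NR sample 3 (−0.41), for Sema4f without TR sample 2 or 3 or NR sample 1 (−0.35 to −0.34), and for Sema5a without TR sample 1 or NR sample 2 or 3 (−0.31 to −0.25), with DESeq2 (−0.34) and with upper quartile normalization (−0.28).

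Sema3g, another secreted semaphorin, was too low to be tested. It had 6, 7, 5 and 12 counts in the TR samples and 3, 0 and 1 in the NR samples, where 3 counts, taken as the limit of detection, stand for between 0.585 and 1.57 CPM in these samples. The pooled TR level was 10.2 times the NR level, with an exact 95% counting interval of 3.60 to 40.0 that rests on 4 NR counts. No such ratio was taken for Ntn4 and Ntng2, the other members not tested. The 15 semaphorins tested but not called had log2 fold changes between −0.63 (Sema3f) and 0.94 (Sema4b).

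Plexins, the receptors that carry the semaphorin signal into the cell, had 10 members including the antisense transcript Plxna4os1, and 3 of them were called, all lower. These were A-type plexins, which pair with neuropilins to bind the secreted semaphorins. Plxna4 (−0.57 ± 0.12, SE) ranged from 66.7 to 84.2 CPM in TR and from 92.2 to 139.8 CPM in NR samples. Plxna2 (−0.41 ± 0.12, SE) ranged from 67.4 to 101.4 CPM in TR and from 112 to 127 CPM in NR samples. Plxna1 (−0.41 ± 0.13, SE) ranged from 47.7 to 60.1 CPM in TR and from 65.0 to 80.0 CPM in NR samples. The groups were apart for these 3 genes and for Plxnb1, which was not called, whereas those of Plxna3 overlapped. The call of Plxna4 did not depend on any 1 sample, whereas those of Plxna1 (−0.39 to −0.35) and Plxna2 (−0.37 and −0.32) were lost without TR sample 2 or NR sample 3, and that of Plxna1 also without NR sample 2. Plxna1 shares 10.7% of its exonic bases with another annotated gene, so that its counts are less certain. Plxnc1, the highest of the plexins, was at 69.8, 102, 113 and 113 CPM in the TR samples and 103, 99.7 and 134 CPM in the NR samples and was not called.

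The neuropilins, co-receptors of the secreted semaphorins, were split. Nrp2 was called lower (−0.48 ± 0.15, SE), with 29.6 to 39.1 CPM in TR and 46.0 to 61.9 CPM in NR samples, and was not called without TR sample 1 (−0.42) or NR sample 3 (−0.33). Nrp1, the more abundant gene, was at 191, 156, 186 and 160.2 CPM in the TR samples and 169.8, 196 and 168 CPM in the NR samples, its groups overlapped and it was not called. No test of the difference between both genes was made.

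Among the Slits, secreted ligands of the Robo receptors, Slit3 was called lower. It stood at 7.95, 19.3, 16.3 and 13.1 CPM in the TR samples and 26.9, 20.5 and 30.4 CPM in the NR samples, a log2 fold change of −0.82 ± 0.24 (SE), and its highest TR value lay just under its lowest NR value. Without NR sample 3 the value was −0.68 and was not called. Slit2, the highest of the family, was at 50.3, 68.9, 58.7 and 74.6 CPM in the TR samples and 51.7, 77.1 and 69.1 CPM in the NR samples and was not called. Slit1 was not called.

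Of the 4 Robo receptors, Robo1 was called higher. Robo1 was at 75.1, 90.4, 76.8 and 88.8 CPM in the TR samples and 57.4, 53.5 and 51.4 CPM in the NR samples. These groups were well apart, with a log2 fold change of 0.67 ± 0.12 (SE), and Robo1 was called under every alternative but the covariate of genes detected. Robo2, the highest of the family, was at 90.1, 115, 92.3 and 99.1 CPM in the TR samples and 92.5, 94.0 and 87.4 CPM in the NR samples and was not called. Robo4, known as the Robo receptor of blood vessels, ranged from 3.55 to 10.5 CPM in TR and from 0.822 to 4.83 CPM in NR samples and was not called.

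Netrins and netrin-G ligands gave no call in the 2 members tested. Ntng1, a membrane-anchored relative of the netrins, was at 70.7, 115, 98.5 and 97.0 CPM in the TR samples and 107, 104 and 85.5 CPM in the NR samples. Ntn1, the classic netrin, ranged from 8.33 to 13.1 CPM in TR and from 4.53 to 9.17 CPM in NR samples. Of the netrin receptors, Unc5a, which mediates repulsion, was called lower (−0.56 ± 0.17, SE), with overlapping ranges of 32.2 to 49.3 CPM in TR and 49.2 to 79.1 CPM in NR samples, and not without NR sample 3 (−0.32). Unc5d, the highest of the 5, was at 77.7, 108, 106 and 102 CPM in the TR samples and 96.4, 108 and 92.7 CPM in the NR samples and was not called. Dcc, Unc5b and Unc5c were not called, and their groups overlapped.

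The Nogo family showed the lowest fold change of all members. Rtn4rl2 and Rtn4rl1 are relatives of the Nogo receptor Rtn4r, and all 3 are lipid-anchored surface proteins. Rtn4rl2 (chr2:84871924-84886710, mm10) was at 0.883, 1.57, 1.45 and 1.07 CPM in the TR samples and 5.14, 7.02 and 6.99 CPM in the NR samples, a log2 fold change of −2.29 ± 0.49 (SE). It had 2, 3, 4 and 3 counts in the TR samples against 17, 36 and 34 in the NR samples, so that the TR values sat at or near the limit of 3 counts. Over the pooled counts the NR level was 5.32 times the TR level, with an exact 95% counting interval of 2.89 to 10.7. The groups were far apart compared with the spread within either of them. Rtn4rl2 was tested under 15 of the 20 alternatives and lost its call under 2 of them. These were the covariate of genes detected (−2.03) and a replicate block and GC content offset together (−1.69). Without any 1 of the NR samples, or thinned to equal depth, Rtn4rl2 missed the count minimum and was not tested. It thus met the minimum only through the NR samples, where it is high. Its known fall also led to the choice of these families, so its separation and calls are no independent support.

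Rtn4rl1 (chr11:75193783-75267769), the most abundant of the 3 receptors, was at 43.7, 43.4, 57.9 and 66.1 CPM in the TR samples and 79.8, 93.8 and 87.4 CPM in the NR samples, a log2 fold change of −0.65 ± 0.13 (SE). Rtn4r (chr16:18127642-18152408) was at 15.5, 15.7, 22.5 and 23.8 CPM in the TR samples and 31.1, 33.9 and 28.6 CPM in the NR samples, a log2 fold change of −0.61 ± 0.19 (SE). For both receptors all TR values lay under all NR values. The call of Rtn4r was lost with the GC content offset (−0.38) and without TR sample 2 (−0.54) or NR sample 2 (−0.55), and that of Rtn4rl1 only with the covariate of genes detected. Rtn4 (chr11:29692947-29744331), which encodes the ligand Nogo, had a fold change of the other sign. It was at 557, 585, 500.1 and 487 CPM in the TR samples and 498, 442 and 458 CPM in the NR samples, a log2 fold change of 0.25 ± 0.10 (SE), and was not called, although it was called higher under 6 of the 20 alternatives, including DESeq2 and upper quartile normalization. Rtn4 shares 18.4% of its exonic bases with Eml6 on the opposite strand. Because Rtn4 makes up most of the family's counts, the summed level of the family overlapped between the groups while Rtn4r, Rtn4rl1 and Rtn4rl2 were each lower.

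**Figure D3:**
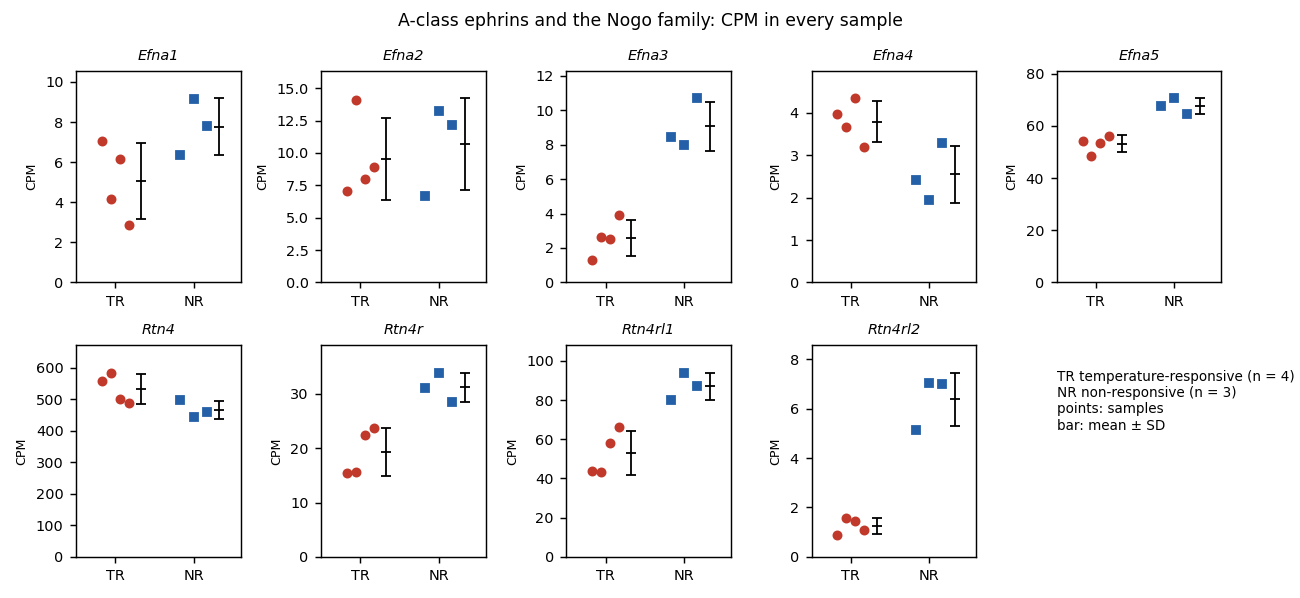
CPM (vertical axes, from 0) of the 5 A-class ephrins (top) and of Rtn4, Rtn4r, Rtn4rl1 and Rtn4rl2 (bottom) in each of the 4 TR samples (red) and 3 NR samples (blue), with the mean and SD of each group. Efna3, Rtn4r, Rtn4rl1, Rtn4rl2 and Efna5 lie lower in every TR sample, whereas the groups of Efna1, Efna2, Efna4 and Rtn4 overlap.

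The 250 bases before the annotated start were read from RefSeq promoter windows (GRCm38.p6, the same build as mm10) to see what the members share in sequence. The windows of the 3 members with the lowest fold changes among called members whose RefSeq start lay within 50 bases of the GENCODE start, Rtn4rl2, Efna3 and Rtn4r, and of Epha2 and Epha4, called higher, are shown. Each is given 5′ to 3′ in the direction of the gene, and capitals mark the GC box GGGCGG on either strand, a motif of many promoters without a TATA box.
Rtn4rl2, chr2:84886693-84886942, minus strand: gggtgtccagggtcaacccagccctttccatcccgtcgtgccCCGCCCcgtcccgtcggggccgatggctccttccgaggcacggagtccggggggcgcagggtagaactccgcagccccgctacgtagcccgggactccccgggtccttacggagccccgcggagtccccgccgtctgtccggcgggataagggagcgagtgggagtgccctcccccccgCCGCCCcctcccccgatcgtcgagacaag
Efna3, chr3:89322940-89323189, minus strand: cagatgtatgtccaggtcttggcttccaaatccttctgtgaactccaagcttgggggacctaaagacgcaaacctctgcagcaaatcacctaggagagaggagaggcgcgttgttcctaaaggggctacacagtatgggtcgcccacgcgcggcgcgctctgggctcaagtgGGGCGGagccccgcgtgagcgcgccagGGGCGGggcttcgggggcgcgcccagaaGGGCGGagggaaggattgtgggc
Rtn4r, chr16:18127392-18127641, plus strand: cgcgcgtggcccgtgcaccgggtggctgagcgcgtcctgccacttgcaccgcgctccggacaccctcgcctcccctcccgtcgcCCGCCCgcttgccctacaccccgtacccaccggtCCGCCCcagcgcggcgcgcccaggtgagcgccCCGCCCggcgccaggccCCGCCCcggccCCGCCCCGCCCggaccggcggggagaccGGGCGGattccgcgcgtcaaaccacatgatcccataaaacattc
Epha2, chr4:141300971-141301220, plus strand: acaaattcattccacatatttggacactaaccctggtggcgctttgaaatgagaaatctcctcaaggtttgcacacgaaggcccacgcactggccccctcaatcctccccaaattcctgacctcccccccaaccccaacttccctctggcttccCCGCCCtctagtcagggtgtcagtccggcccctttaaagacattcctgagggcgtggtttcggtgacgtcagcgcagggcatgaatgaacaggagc
Epha4, chr1:77515089-77515338, minus strand: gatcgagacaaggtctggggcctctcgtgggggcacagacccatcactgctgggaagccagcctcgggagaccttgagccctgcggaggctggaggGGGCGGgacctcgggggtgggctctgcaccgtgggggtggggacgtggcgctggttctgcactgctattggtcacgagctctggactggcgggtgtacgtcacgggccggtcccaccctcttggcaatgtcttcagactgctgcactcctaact

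These windows hold 2 GC boxes in Rtn4rl2, 3 in Efna3, 7 in Rtn4r and 1 each in Epha2 and Epha4. A window was found for 62 of the 74 members, and 46 of these (74.2%) held at least 1 GC box, compared with 58.5% of the 10818 tested genes with a window and 33.04% of all 27022 windows. The share was alike for members called lower (10 of 12) and higher (5 of 6), and 29 of 41 members tested but not called held one. The cyclic AMP response half-site TGACG was found in 8 of the 62 windows (12.9%), against 26.5% of tested genes. The TATA box TATAAA was found in 2 windows, the E-box CACGTG in 2 and the estrogen response half-site AGGTCA in 8, against 6.47%, 8.33% and 10.2% of tested genes. The window of Epha2 held both half-sites. Each motif was searched on both strands, and none of the 5 holds another within its letters. These matches describe letters within the windows and do not show that a factor binds there.

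Other genes of the same pathways, from a list that is not part of the families above, were read in the same fit. This list was also chosen with earlier results of these data known. The genes named from it are the called ones with the largest rise and fall in each part. Their adjusted p-values are therefore a description and no independent support. Of 72 such genes 70 were tested, and 29 were called, 8 higher and 21 lower, against 30.0% of all genes (15.1% higher and 14.9% lower), and the median log2 fold change was −0.15. Without NR sample 2, 17 of them were called (against 21.2% of all genes), and without TR sample 2, 19 were (against 21.0%). Of the 11 ephrin signalling partners, 2 were called higher and 4 lower. Nck1, an adaptor protein that Eph receptors recruit, rose by 0.67 ± 0.15 (SE) on the log2 scale (edgeR, adjusted p = 0.00181), and Ngef (ephexin), an exchange factor activated by Epha4, changed by −0.71 ± 0.12 (SE, edgeR, adjusted p = 0.000219). For both the TR and NR samples were apart, with 48.9 to 61.1 CPM against 31.0 to 40.5 CPM for Nck1 and 63.2 to 82.8 CPM against 113 to 149 CPM for Ngef.

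Of the 16 semaphorin signalling partners, 1 was called higher and 6 lower. Dpysl2, a collapsin response mediator that binds tubulin, rose by 0.66 ± 0.13 (SE; edgeR, adjusted p = 0.000854), and Mical2, an oxidase acting on actin, changed by −0.80 ± 0.16 (SE; edgeR, adjusted p = 0.00141). Of the 21 netrin and Slit partners, 1 was called higher and 7 lower. The one called higher was Draxin, a secreted ligand of Dcc, with 5, 15, 11 and 22 counts in the TR samples and 3, 3 and 0 in the NR samples. Its pooled TR level was 12.04 times the NR level, with an exact 95% counting interval of 5.18 to 34.3 that rests on 6 NR counts. Draxin met the count minimum only through TR samples 2, 3 and 4, the group where it is high. Its call is therefore no support for a difference. Rgma, a ligand of neogenin, changed by −0.64 ± 0.23 (SE, edgeR, adjusted p = 0.0389).

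Of the 9 Nogo receptor partners tested, 2 were called higher and 3 lower. Lingo1, a co-receptor of the Nogo receptor, changed by −0.63 ± 0.14 (SE; edgeR, adjusted p = 0.00325), in the same direction as Rtn4r and its relatives. Rtn1, a reticulon related to Rtn4, rose by 0.40 ± 0.11 (SE; edgeR, adjusted p = 0.0109). Of the 13 cytoskeletal effectors shared by these pathways, 2 were called higher and 1 lower. The small GTPase Rac1 rose by 0.34 ± 0.10 (SE; edgeR, adjusted p = 0.0163), although it shares 51.4% of its exonic bases with Daglb on the opposite strand, and Limk2, a kinase of the actin regulator cofilin, changed by −0.48 ± 0.11 (SE; edgeR, adjusted p = 0.00195).

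The members are richer in G and C than other genes, and the fold changes of all genes moved with GC content. The longest transcript had a median GC content of 55.8% over the 71 members tested and of 50.2% over all genes tested. Members called lower had a median of 56.8%, those called higher 47.6% and those not called 55.6%. Across genes, Spearman's rho between log2 fold change and GC content was −0.29 over the 71 members and −0.36 over 14293 genes, all read from the same 7 libraries, and genes are not independent replicates. Rtn4rl2, with 68.5%, was the member with the highest GC content.

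With a GC content offset fitted over all genes, 17 members were called, 4 higher and 13 lower, against 23.9% of all genes (8.85% higher and 15.0% lower). Of these, 14 were also called without it. Efnb2, Epha4, Epha7, Plxna1, Rtn4r, Sema4f and Unc5a were no longer called, and Efna5 (−0.46) and Epha5 (−0.28) were called lower and Sema4b (1.01) higher in addition. Rtn4rl2 and Efna3 were called with and without the offset, but their fall was known when the families were chosen.

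**Figure D4:**
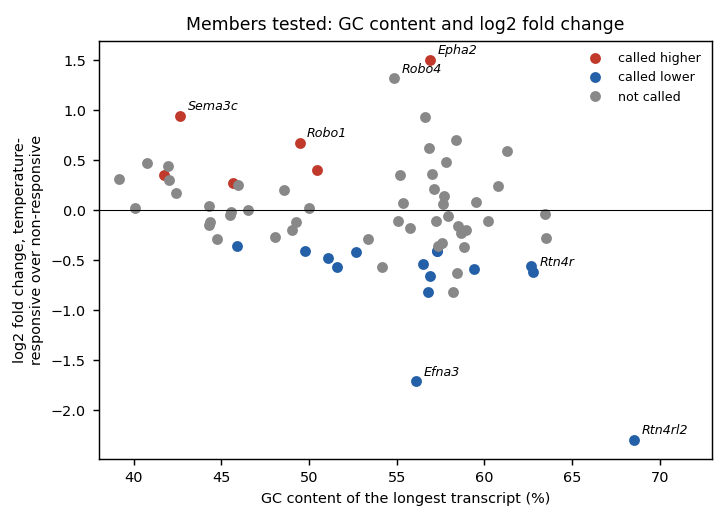
Log2 fold change (TR over NR, vertical axis) against the GC content in percent of the longest transcript (horizontal axis) for the 71 members tested, 1 point per member, coloured by call. The members called higher have a median GC content of 47.6% and those called lower of 56.8%, and Rtn4rl2 lies at the lower right.

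Markers of blood vessels also moved with the group. Of 5 endothelial markers 4 were called higher in TR neurons, and their summed level ran from 63.6 to 189 CPM in TR and from 12.1 to 40.2 CPM in NR samples. All 5 pericyte markers were called higher, with sums of 90.9 to 192 CPM in TR and 55.9 to 69.8 CPM in NR samples. No endothelial or pericyte marker was at 0 in any sample. TR sample 3 had the highest vascular sums and also the highest level of Epha2, Sema3c and Robo4, of which Epha2 and Robo4 are also known from endothelial cells. Without TR sample 3 the log2 fold changes were 1.27 ± 0.47 (SE) for Epha2, 0.87 ± 0.19 (SE) for Sema3c and 0.72 ± 0.14 (SE) for Robo1, and all 3 were still called, whereas Efnb2 was not. Robo4 had 0.96 ± 0.58 (SE) without that sample and 1.32 with it, and was not called in either fit. The other TR samples also had higher endothelial and pericyte sums than any NR sample. Leaving out TR sample 3 therefore does not tell vascular RNA apart from the group. The part of vascular RNA in these differences was not tested. Microglial markers ran the other way, from 257 to 309 CPM in TR and from 316 to 333 CPM in NR samples, with 1 of 5 called higher and 1 called lower.

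**Figure D5:**
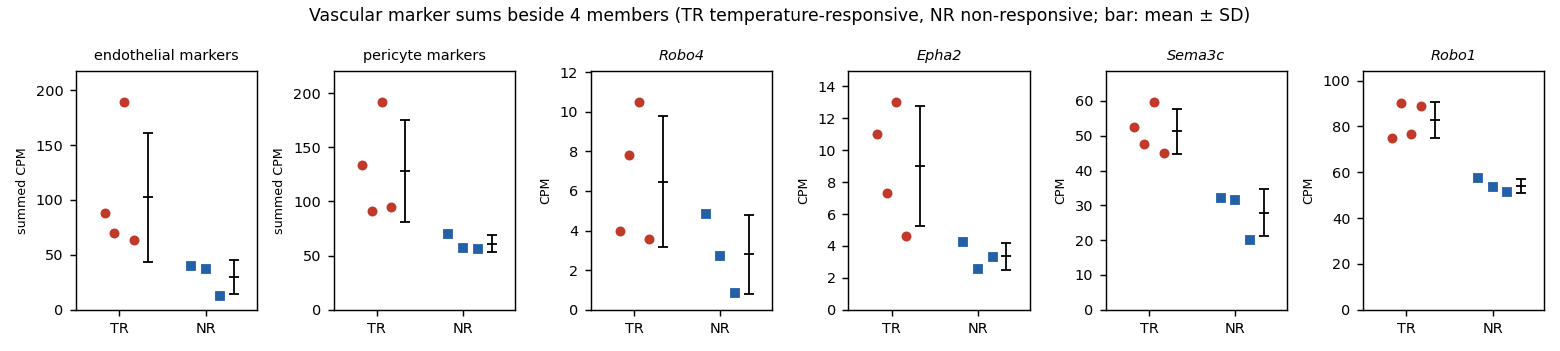
Summed CPM of 5 endothelial and 5 pericyte markers, and CPM of Robo4, Epha2, Sema3c and Robo1 (vertical axes, from 0), in each of the 4 TR samples (red) and 3 NR samples (blue), with the mean and SD of each group. TR sample 3 is highest in both marker sums, Robo4, Epha2 and Sema3c but not in Robo1.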

How the data were processed

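Pools of 2 Esr1-ZsGreen+ neurons from the MPA were sequenced after SMART-seq amplification, 4 labelled as temperature responsive and 3 as not responsive. The authors aligned the reads to mm10, removed duplicates and deposited raw read counts per gene symbol, without normalization. The submitters' processing notes name STAR 2.6.0, HTSeq 0.9.1 and FastQC 0.72, while the annotation and strandedness are not given in the sources used here. Without molecular identifiers, that step may also discard separate molecules of abundant genes. Each sample was counted once, since samples of a group differed by more than sampling noise (over 12220 genes, chi-square divided by its degrees of freedom was 1.94 to 5.36).

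From the deposited counts, CPM was computed against the total of each sample. A gene entered the test with 10 or more counts in 3 or more samples, and edgeR 4.0.16 was used (quasi-likelihood, robust, TMM, R 4.3.3), two-sided, over all 14407 genes with Benjamini-Hochberg adjustment at 0.05, with the SE taken as the size of the log2 fold change over the square root of F. DESeq2 1.42.0 and limma 3.58.1, other normalizations and filters, thinning, covariates, offsets (mgcv 1.9.3), a block for replicate number and fits without each sample in turn were alternatives. Intervals and limits of detection cover counting error only. GENCODE M21 on mm10 gave positions, transcripts and GC content, and held 98.4% of the symbols and all 74 members.

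The members and lists were chosen with earlier results of these data known. All called members were named, and values in every sample were given for up to 5 members called higher and 5 called lower with the largest fold changes and groups apart, for the relatives of Efna3 and Rtn4rl2, and for the highest member of each family. Of the pathway list, the largest rise and fall in each part were named. Other genes named were chosen after their values were seen.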

Additional observations from a re-analysis of the deposited data

Results flagged for a closer look

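Of 35 measures examined, 2 had a TR sample that stood apart from the other 3 by Dixon's criterion, and chance gives about 1 in 20. For Sema5a the gap was 0.975 of the range of the group, with TR sample 1 at 59.6 CPM and the others between 87.8 and 88.5 CPM. For Efnb3 it was 0.889 of the range, with TR sample 3 at 173 CPM and the others between 170.3 and 170.6 CPM. The NR groups, with 3 samples each, were not examined in this way.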

How the results depend on the processing

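Of the 21 members called, 20 kept their direction under all 20 alternatives where they were tested, and 13 lost their call when at least 1 sample was left out. Efna3, Plxna4, Robo1, Rtn4rl1 and Sema3c lost it, among the alternatives that tested them, only with the genes detected as a covariate. That covariate left 0 members called (0 higher, 0 lower) and 0 pathway genes (0 higher, 0 lower), where 16 members had an unadjusted p under 0.05. The genes detected did not overlap between the groups, so the effect of that covariate and that of the group cannot be told apart. Members called higher numbered 3 with the transcript length offset (12.1% of all genes) and 10 with upper quartile normalization (18.3%). With a replicate block and GC content offset together, 11 members were called (against 18.7% of all genes), of which 6 were lower. In that fit 4 pathway genes were called higher, against 1146 of all 13968 genes. Pathway genes called higher numbered 3 under the GC content offset (8.85% of all genes), whereas the offset for transcript length gave 4 (12.1%). Leaving out 1 sample gave 10 to 23 members called, 3 to 7 higher and 6 to 16 lower, and 17 to 32 pathway genes, 3 to 10 higher and 13 to 22 lower. The same fits called 18.5% to 32.2% of all genes, 1343 to 2327 higher and 1277 to 2256 lower, so the calls over all genes moved as well. The lowest counts of members came without NR sample 3, and the lowest of pathway genes without NR sample 2.

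Among the genes whose fold changes are given for every alternative, signs turned for 3 ephrins, and they also turned for other members that were not called. With the covariate the log2 fold changes were −0.067 for Efnb2, 0.022 for Efna1 and 0.00416 for Efna2. Efna2 also had 0.11 with the block and GC content offset, 0.19 after thinning to equal depth and between −0.38 and 0.0243 when 1 sample was left out. The summed Nogo family changed by −0.055 per kilobase against 0.035 on CPM, and that of the netrins, near 0 on CPM, by 0.017. The causes were not tested. Same-numbered samples of the groups did not deviate together (correlations −0.128, −0.062 and 0.032). This gave no sign that the numbers pair samples, although so few correlations cannot exclude it. With the replicate block alone 24 members were called (against 29.3% of all genes). Depth limits Rtn4rl2, Sema3g and Draxin, whose lower groups lie near 3 counts, and Ntn4 and Ntng2, which were too low to be tested. Efna3 was also low, with 3 to 11 counts in its TR samples.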
